A study of Homo sapiens with 12 samples.

Results

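The gene expression of the libraries labelled A2058 was compared with that of the libraries labelled A375 and SKMEL-5 after culture in 1% oxygen. The comparison takes 6 of the 12 libraries of the series, 2 of A2058 against 2 of A375 and 2 of SKMEL-5, chosen by their labels and by no measured value. It addresses which genes differ between a melanoma line that transcribes the pigment programme and lines that do not, when oxygen is low. Pigment itself was not measured. With 1 line on one side, what belongs to the line A2058 and what belongs to a pigment-cell state cannot be told apart.

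The labels name established human cell lines from metastatic melanoma, the cancer of pigment cells, and a line stands for 1 tumour. The hypoxic groups were A2058, A375 and SKMEL-5 cells kept in 1% oxygen, and the matching normoxic groups (2 libraries a line) were kept in atmospheric oxygen, which the study used as its reference. The labels give no further treatment and no time in low oxygen. The series' design text calls the 2 libraries of a group biological duplicates, without saying how far apart the cultures were, so the p-values measure the spread between these libraries.

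Melanocytes make melanin in melanosomes, organelles that are built on amyloid fibrils of PMEL and filled with the enzymes TYR, TYRP1 and DCT. The transcription factor MITF, working with SOX10, switches on most of these genes. Melanoma cells can leave this differentiated state for a dedifferentiated state, in which MITF and its targets are low and receptor kinases such as AXL and EGFR are high. Low oxygen stabilises the hypoxia-inducible factors, which switch on genes of glucose use, blood vessel growth and pH control in most cell types.

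The deposited counts of the 6 hypoxic libraries summed to between 41766281 and 54202819, and the genes with 10 or more counts numbered 15890 to 17856. A count of 0 allows up to 3 counts of the total, 0.0553 to 0.0718 CPM (counts scaled to the size of the library) in these libraries, for counting error alone. Levels below are CPM scaled by edgeR's TMM factors, with replicate 1 before replicate 2, and the limits just given are without these factors. A log2 difference is A2058 minus the mean of A375 and SKMEL-5, ± its standard error (SE). A fold given as at least some value sets the mean of 1 side against 3 counts in a library of the other side. The spread between the libraries of the higher side is not in it. Libraries did not group by label alone. Over the 19636 tested genes, Pearson's r of log2 CPM (genes are not independent replicates) was 0.9899 between replicate 2 of A375 and of SKMEL-5 and 0.9774 between replicate 1 of both, against 0.9266 within A375 and 0.9508 within SKMEL-5. The 2 A2058 libraries correlated at 0.9662 with each other and at 0.8198 to 0.8705 with the other 4. By edgeR's quasi-likelihood test no gene differed between the hypoxic A375 and SKMEL-5 libraries (233 genes, 1.19%, at an unadjusted p under 0.05; 11 past DESeq2's adjusted threshold), and these libraries are therefore also used below 1 line at a time. The files hold no genotype with which the names of the lines could be checked. The SKMEL-5 line is widely used as a carrier of melanocyte antigens, whereas the hypoxic libraries so labelled had no count of TYR or MLANA. On the first principal component of log2 CPM centred within each line (47.1% of the variance), 3 hypoxic libraries stood apart: A2058 replicate 2, A375 replicate 1 and SKMEL-5 replicate 1 scored 72.7, 132 and 108, while the other 9 libraries scored -64 to -7.45. Counts are also given without these 3.

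In hypoxia, 4152 of the 19636 tested genes (21.1%) passed edgeR's quasi-likelihood test of A2058 against the mean of the other lines at an adjusted p under 0.05, the test behind every adjusted p of a gene below. Of these genes 2198 (11.2%) were higher in A2058, at a median log2 difference of 2.66, and 1954 (9.95%) were lower, at a median of -4.17. The median over all tested genes was -0.06. The difference reached 16-fold in 700 of the higher and 1016 of the lower genes. For 188 of the higher genes the 4 A375 and SKMEL-5 libraries had no count, and 401 of the lower genes had none in A2058. The libraries of the 2 sides did not overlap for 2166 of the higher and 1949 of the lower genes; among all tested genes A2058 lay above the others for 21.6% and below for 21.6%. Whether fewer cells carried a transcript or each cell carried less of it cannot be told apart in bulk RNA. Against A375 alone 1451 genes were higher and 1642 lower, and against SKMEL-5 alone 1325 and 1545. These comparisons are not independent, because both use the same A2058 libraries. The A375 and SKMEL-5 libraries were also much alike (Pearson's r 0.9774 and 0.9899 between same-numbered libraries), so both comparisons use a similar reference. Fitted on the 6 hypoxic libraries alone the counts were 1353 (7.34% of the genes tested in that fit) and 1211 (6.57%), and without the 3 libraries that stood apart 1079 (5.27%) and 820 (4.01%).

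The genes that make melanin and build the melanosome set A2058 apart. Of 12 such genes 11 were higher in A2058 and 1 did not pass the threshold, against 11.2% of all tested genes, and in each of the 12 both A2058 libraries lay above the other 4. The median difference of the 12 was 8.39 on the log2 scale (7.44 with genes at 0 counts on one side set to their lower bound). The same 11 of 12 were called with the hypoxic libraries alone, against A375 alone and against SKMEL-5 alone, and 7 without the 3 libraries that stood apart.

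TYR, the oxidase that starts melanin synthesis (ENSG00000077498.9, chromosome 11, 89177452 to 89295759, GRCh38), stood at 108 and 191 CPM in the A2058 libraries against 0 counts in each of the other 4, at least 1656-fold higher (adjusted p = 0.000368). Its partner DCT, which isomerises dopachrome, stood at 666 and 2529.6 CPM in A2058, 0.210 and 1.68 in A375 and 0.143 and 0.216 in SKMEL-5 (log2 difference 11.89 ± 0.87, adjusted p = 1.36e-05). TYRP1, which oxidises the product of DCT, was lower in level, at 13.8 and 15.3 CPM against 0.0301 and 0.159 in A375 and 0.262 and 0.377 in SKMEL-5 (log2 difference 6.32 ± 1.13, adjusted p = 0.00256). The 3 enzymes of the melanin pathway were thus detected in both A2058 libraries and stood at no more than 1.68 CPM elsewhere.

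PMEL, the fibril protein (ENSG00000185664.14, chromosome 12, 55954105 to 55973317, GRCh38), reached 516 and 2946 CPM in A2058, 0.992 and 0.772 in A375 and 1.24 and 0.503 in SKMEL-5 (log2 difference 10.95 ± 0.86, adjusted p = 2.01e-05). MLANA, the melanosome antigen MART-1 (ENSG00000120215.10, chromosome 9, 5890802 to 5910606, GRCh38), had 22.2 and 45.5 CPM in A2058 and 0 counts in the other 4 libraries, at least 375.4-fold higher (adjusted p = 0.000179). GPNMB, a PMEL relative of melanosomes and lysosomes, was present in every library, at 581 and 2661 CPM in A2058, 178 and 160.2 in A375 and 191 and 133 in SKMEL-5 (log2 difference 3.29 ± 0.55, adjusted p = 0.00174). PMEL, DCT and GPNMB were higher in A2058 replicate 2 than in replicate 1, and GPNMB lost its call without replicate 2 (1.80, adjusted p = 0.0512).

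Among the transporters and channels of the melanosome, SLC24A5, a potassium-dependent sodium-calcium exchanger, stood at 57.1 and 38.7 CPM in A2058 and had 2 counts in all in the other 4 libraries, 4311-fold higher (95% exact interval 1193 to 35607, counting error only). TRPM1, a cation channel whose gene also holds a microRNA that melanocytes make, stood at 6.06 and 11.1 CPM against 1 count in all, 1434-fold higher (interval 257 to 56739). SLC45A2 (log2 difference 5.28 ± 1.05, adjusted p = 0.00476), OCA2 (log2 difference 4.83 ± 1.05, adjusted p = 0.00765) and the melanosome receptor gene GPR143 (log2 difference 4.62 ± 0.93, adjusted p = 0.0052) were also higher, at lower levels. OCA2 lost its call without A2058 replicate 2 (3.40, adjusted p = 0.103), and TYRP1, SLC45A2, OCA2 and GPNMB lost theirs without the 3 libraries that stood apart. ATP7A, the copper pump that loads TYR with its metal, stood at 32.4 and 48.2 CPM in A2058, 5.50 and 18.4 in A375 and 10.02 and 17.7 in SKMEL-5 and did not pass (log2 difference 1.64 ± 0.56, adjusted p = 0.06). It did pass in DESeq2 (1.65, adjusted p = 0.026), without A375 hypoxia replicate 2 (2.21, adjusted p = 0.0147) and without either normoxic A2058 library (1.65, adjusted p = 0.0291 and 1.64, adjusted p = 0.0346).

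**Figure D1:**
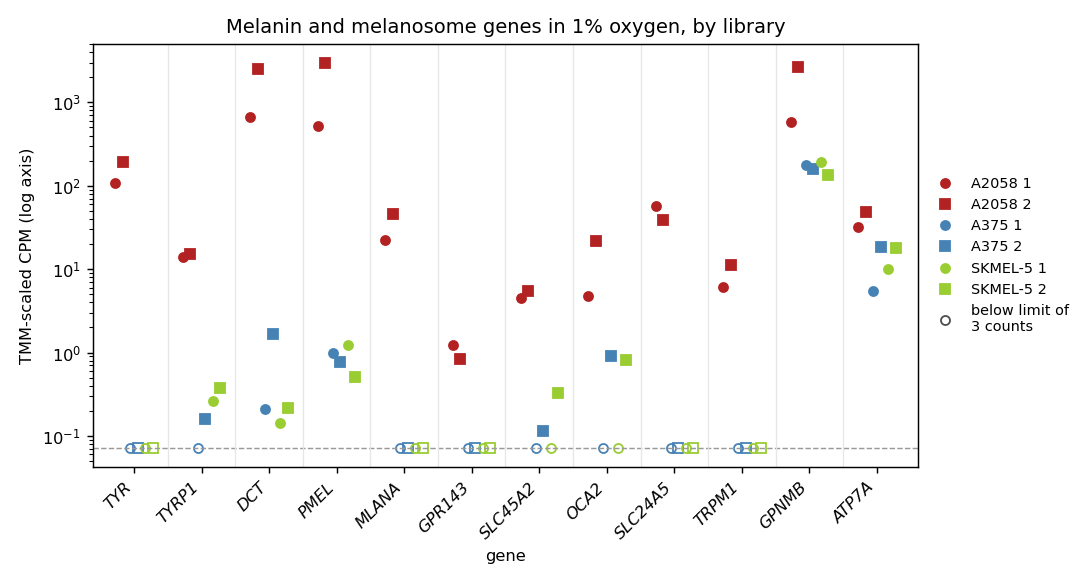
TMM-scaled CPM (log axis) of the 12 melanin and melanosome genes in each hypoxic library, circles for replicate 1 and squares for replicate 2. Open symbols mark values under 0.0718 CPM (dashed line) and are drawn on it. That line is the highest limit of 3 counts in these libraries before TMM scaling. In each of the 12 genes both A2058 libraries lie above the A375 and SKMEL-5 libraries.

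The stretches upstream of these genes are shown because MITF is known to bind the M-box, whose core reads TCATGTG on one strand and CACATGA on the opposite one. In RefSeq promoters (GRCh38.p14), 10 of the 12 genes were matched by symbol. The core, searched on both strands in the 250 bases before the first listed start of each gene, was present in 5 of the 10 (TYR, TYRP1, SLC24A5, GPNMB and GPR143) and in 2.58% of all 27305 promoters. The shorter E-box CATGTG, which every M-box core contains, was present in 7 of the 10, OCA2 and TRPM1 in addition, and in 9.54% of all promoters. The stretches of 30 bases read 5′ to 3′ on the strand of the gene, with the core in capitals. A match is a description of these letters and no measure of binding.
TYR, chr11:89177759-89177788, + strand, 105 bases before the start: agaaaagtcagTCATGTGcttttcagagga
TYRP1, chr9:12693229-12693258, + strand, 145 bases before the start: ttggaagggaaTCATGTGctgatcaagtcc
SLC24A5, chr15:48120964-48120993, + strand, 15 bases before the start: aggagactcctCACATGAtccagtttaatc
GPNMB, chr7:23246641-23246670, + strand, 123 bases before the start: tgagtcataagCACATGAgttgtaagaggt
GPNMB, chr7:23246702-23246731, + strand, 62 bases before the start: cttaataccatCACATGAtcctccccgagg
GPR143, chrX:9765890-9765919, - strand, 61 bases before the start: gaggcccagggCACATGAtgccgcccccag
GPR143, chrX:9765862-9765891, - strand, 33 bases before the start: agcccgcccagCACATGAcccaggcaggcc
DCT held no core before its first listed start and 2 before a start listed second, shown because DCT, like TYR and TYRP1, is an enzyme of melanin.
DCT, chr13:94479799-94479828, - strand, 135 bases before the start listed second: tgcactttgggTCATGTGctaatgatgagg
DCT, chr13:94479879-94479908, - strand, 215 bases before the start listed second: tttggctggagCACATGAgcccagataaag
Of the matched genes, MLANA, OCA2, TRPM1 and ATP7A held no M-box core in this window.

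The machinery that assembles and moves melanosomes differed by less. Of 22 genes 11 were higher in A2058 and 1 was lower (11.2% and 9.95% of all tested genes), at a median log2 difference of 1.16. RAB27A, the small GTPase that ties melanosomes to actin motors, stood at 26.8 and 58.9 CPM in A2058, 3.43 and 6.20 in A375 and 7.51 and 6.38 in SKMEL-5 (log2 difference 2.89 ± 0.38, adjusted p = 0.000392). MREG, melanoregulin, stood at 14.6 and 15.2 CPM against 1.41 and 2.18 in A375 and 1.69 and 3.18 in SKMEL-5 (log2 difference 2.83 ± 0.43, adjusted p = 0.000985). HPS3, a subunit of the BLOC-2 complex that sorts cargo to melanosomes, stood at 42.2 and 99.2 CPM against 5.59 and 13.6 in A375 and 11.6 and 15.1 in SKMEL-5 (log2 difference 2.64 ± 0.41, adjusted p = 0.00116). RAB32, the GTPase that works with these complexes (log2 difference 1.76 ± 0.33, adjusted p = 0.0031), lost its call without A2058 replicate 2 (1.25, adjusted p = 0.0734). BLOC1S2 was the member that was lower, at 13.98 and 9.86 CPM in A2058 against 27.8 and 28.9 in A375 and 24.3 and 27.0 in SKMEL-5 (log2 difference -1.18 ± 0.30, adjusted p = 0.0181). This call was also lost without A2058 replicate 2 (-0.95, adjusted p = 0.171). RAB27A, MREG and HPS3 kept their calls in every fit that left out a library, whereas the list as a whole kept 6 higher calls with the hypoxic libraries alone and 5 without the 3 that stood apart.

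MITF, the master regulator of pigment cells (ENSG00000187098.16, chromosome 3, 69739435 to 69968337, GRCh38), stood at 195 and 539 CPM in A2058, 22.8 and 28.3 in A375 and 173 and 91.3 in SKMEL-5 (log2 difference 2.66 ± 0.40, adjusted p = 0.00099). The 2 comparison lines stood at unlike levels of this gene (log2 A375 minus SKMEL-5 -2.37), a difference that did not pass in edgeR. The log2 difference of A2058 was 3.84 from A375 (adjusted p = 0.000995) and 1.47 from SKMEL-5, which did not pass (adjusted p = 0.0713). SOX10, which MITF works with, was high in every library, at 947 and 1684 CPM in A2058, 826 and 972 in A375 and 881 and 765 in SKMEL-5, and did not pass (log2 difference 0.61 ± 0.34, adjusted p = 0.232). PAX3, which acts above MITF, did not pass either (log2 difference 0.88 ± 0.34, adjusted p = 0.0951).

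Of 16 tested regulators of melanocytes 8 were higher and 2 lower (11.2% and 9.95% of all tested genes), with a median of 1.80. The receptor kinase gene KIT, which melanocytes need for survival, stood at 5.999 and 55.4 CPM in A2058 and had 0 counts in the 4 others. Its A2058 mean was at least 340.4-fold higher (adjusted p = 0.000654). IRF4, a factor that acts with MITF on TYR, stood at 27.7 and 50.2 CPM against 0 and 0 in A375 and 0.0954 and 0.0180 in SKMEL-5 (log2 difference 11.60 ± 0.72, adjusted p = 2.01e-05). The endothelin receptor gene EDNRB (log2 difference 2.07 ± 0.38, adjusted p = 0.00309) and LEF1, which carries the Wnt signal to MITF (log2 difference 2.30 ± 0.30, adjusted p = 0.000373), were higher as well. EDNRB lost its call without the 3 libraries that stood apart (1.79, adjusted p = 0.0648).

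The AP-2 factors, which steer pigment and neural crest cells, differed in opposite directions. TFAP2A stood at 215 and 549.9 CPM in A2058, 13.9 and 5.43 in A375 and 21.0 and 8.94 in SKMEL-5 (log2 difference 4.99 ± 0.52, adjusted p = 9.41e-05). TFAP2B had 0 counts in A2058 and stood at 28.0 and 100.3 CPM in A375 and 38.2 and 36.0 in SKMEL-5, at least 587-fold lower in A2058 (adjusted p = 0.000126). TFAP2C, at 7.09 and 1.81 CPM in A2058, stood at 152 and 179 in A375 and 127 and 129.6 in SKMEL-5 (log2 difference -5.03 ± 0.80, adjusted p = 0.00133).

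Of 18 further targets of MITF and SOX10, 11 were higher in A2058 and none lower, with a median of 2.45, and the count was also 11 with the hypoxic libraries alone and without the 3 that stood apart. The shares of all tested genes were 11.2% higher and 9.95% lower. MBP, a myelin gene that SOX10 drives in glia, stood at 77.8 and 125 CPM in A2058 and had 0 counts in the 4 others, at least 1124-fold higher (adjusted p = 2.68e-05). PPARGC1A, the coactivator of mitochondrial biogenesis that MITF switches on, stood at 30.9 and 105 CPM against 0.301 and 0.0227 in A375 and 0.215 and 0.108 in SKMEL-5 (log2 difference 8.75 ± 0.77, adjusted p = 3.81e-05). GPM6B, a proteolipid, stood at 37.6 and 43.6 CPM against 0.391 and 0.318 in A375 and 0.572 and 0.269 in SKMEL-5 (log2 difference 6.72 ± 0.39, adjusted p = 5.25e-06). The protease gene CAPN3 (log2 difference 6.34 ± 0.71, adjusted p = 0.000142), the lipid carrier gene APOE (log2 difference 6.16 ± 1.03, adjusted p = 0.00174) and the cell cycle kinase gene CDK2 (log2 difference 2.65 ± 0.39, adjusted p = 0.000818) were higher as well. CDK2 and PMEL overlap on chromosome 12 in the annotation, and reads of the 2 may have been mixed if the counting ignored strand. In contrast, the apoptosis inhibitor gene BCL2A1 did not pass (log2 difference 1.26 ± 0.79, adjusted p = 0.301).

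AXL, the receptor kinase that marks dedifferentiated melanoma (ENSG00000167601.12, chromosome 19, 41219203 to 41261766, GRCh38), did not separate the lines. It stood at 268 and 342 CPM in A2058, 466 and 741 in A375 and 335 and 794 in SKMEL-5 (log2 difference -0.94 ± 0.70, adjusted p = 0.39), and A2058 replicate 2 lay above SKMEL-5 replicate 1. NGFR, a neural crest receptor, stood at 43.0 and 3.59 CPM in A2058, 47.2 and 259 in A375 and 34.3 and 205 in SKMEL-5 and did not pass (log2 difference -2.53 ± 1.56, adjusted p = 0.287). With no filter on low counts NGFR passed (-2.53, adjusted p = 5.99e-07). EGFR was the receptor of the 3 markers that passed, at 0.3999 and 0.690 CPM against 5.05 and 20.4 in A375 and 13.8 and 26.6 in SKMEL-5 (log2 difference -4.88 ± 0.87, adjusted p = 0.00251). So 1 of the 3 markers of dedifferentiated cells was lower in A2058, and the summed level of the 3 was 311 to 346 CPM in A2058 and 383 to 1026 CPM in the others.

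Of 25 tested genes of the wider dedifferentiated list 7 were lower in A2058 (against 9.95% of all genes) and 3 higher, with a median of -1.48; 8 and 3 were called with the hypoxic libraries alone, and 4 and 0 without the 3 that stood apart. The 3 higher genes compare with a share of 11.2% among all tested genes. INHBA, the activin A subunit, stood at 3.01 and 1.41 CPM in A2058, 279 and 183 in A375 and 290.3 and 177 in SKMEL-5 (log2 difference -6.71 ± 0.92, adjusted p = 0.00054). WNT5A, a Wnt ligand of invasive melanoma, stood at 0.274 and 0.115 CPM against 7.33 and 19.4 in A375 and 12.1 and 23.0 in SKMEL-5 (log2 difference -6.24 ± 1.07, adjusted p = 0.00197). The matrix protein gene TGFBI (log2 difference -4.99 ± 0.92, adjusted p = 0.00306) and the receptor kinase gene PDGFRB (log2 difference -2.19 ± 0.39, adjusted p = 0.0024) were lower too, and so were FOSL1, an AP-1 subunit (log2 difference -2.97 ± 0.66, adjusted p = 0.00855), and TNFRSF12A, the TWEAK receptor (log2 difference -2.75 ± 0.61, adjusted p = 0.00895). Without A2058 replicate 2, FOSL1 (-2.69, adjusted p = 0.11) and TNFRSF12A (-2.14, adjusted p = 0.096) did not pass. Neither did TGFBI without the 3 libraries (-3.50, adjusted p = 0.0739).

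The list did not move one way. ROR1, the receptor through which WNT5A signals, was higher in A2058, at 37.4 and 28.3 CPM against 1.95 and 4.43 in A375 and 2.41 and 4.40 in SKMEL-5 (log2 difference 3.31 ± 0.58, adjusted p = 0.00231; without the 3 libraries 3.11, adjusted p = 0.0524). SOX9, which is often high where SOX10 is low, stood at 5.33 and 1.38 CPM in A2058, 1.80 and 2.52 in A375 and 1.03 and 3.81 in SKMEL-5 and did not pass (log2 difference 0.55 ± 0.99, adjusted p = 0.742).

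**Figure D2:**
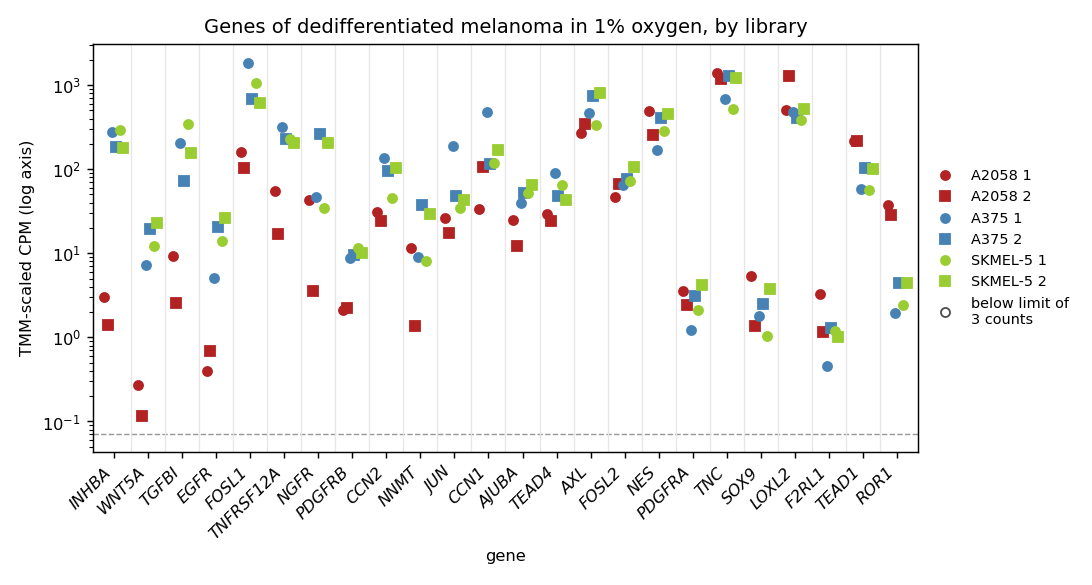
TMM-scaled CPM (log axis) of the tested genes of dedifferentiated melanoma in each hypoxic library (1 of the 25 is not shown), ordered by the log2 difference from lowest to highest. The genes from INHBA to EGFR on the left lie lower in both A2058 libraries, while the points of AXL overlap between the lines.

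Class II antigen presentation, by which cells show peptides to CD4+ T cells, was the list with the largest share of lower genes. Of 13 genes 12 were lower in A2058 and none higher, at a median log2 difference of -7.54 (9.95% of all tested genes were lower), and in each of the 12 both A2058 libraries lay below the other 4. The count was 11 with the hypoxic libraries alone, 9 without the 3 that stood apart, 12 against A375 alone and 11 against SKMEL-5 alone.

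HLA-DRA, the alpha chain of the DR molecule (ENSG00000204287.14, chromosome 6, 32439842 to 32445046, GRCh38), stood at 0.337 and 0.0862 CPM in A2058, 368 and 348 in A375 and 254 and 292 in SKMEL-5 (log2 difference -10.45 ± 0.72, adjusted p = 9.65e-06). HLA-DQB1 stood at 0.0421 and 0.0287 CPM against 82.1 and 48.1 in A375 and 48.5 and 34.3 in SKMEL-5, with 3 counts in all in A2058, 1379.7-fold lower (95% exact interval 472 to 6692). HLA-DQA1, with 1 count in all in A2058, stood at 20.3 and 23.5 CPM in A375 and 15.3 and 13.8 in SKMEL-5, 1467-fold lower in A2058 (interval 263 to 57953). HLA genes are near-identical and vary between people, so reads of HLA-DQA1, HLA-DQB1 and HLA-DRB5 may have been shared among copies or lost where a line's alleles differ from the reference.

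The regulator and the chaperone of the pathway were lower too (chosen after their values were seen). CIITA, the coactivator that switches class II genes on, stood at 1.05 and 1.44 CPM in A2058, 25.2 and 62.5 in A375 and 31.3 and 32.8 in SKMEL-5 (log2 difference -4.91 ± 0.93, adjusted p = 0.00355). This call was lost without the 3 libraries that stood apart (-5.40, adjusted p = 0.0603). CD74, the invariant chain that guards the peptide groove, stood at 7.11 and 3.42 CPM against 4179 and 2723 in A375 and 2181 and 1986 in SKMEL-5 (log2 difference -8.99 ± 0.69, adjusted p = 1.79e-05). CTSS, a protease that trims CD74, was the member that did not pass (log2 difference 0.71 ± 0.93, adjusted p = 0.644). Markers of blood cells, which carry class II molecules in tissues, were at or near 0 in these cultures: of 6, 2 were tested, none passed, and their summed level was 0.147 to 0.46 CPM in A2058 and 0.0715 to 1.68 CPM in the others.

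**Figure D3:**
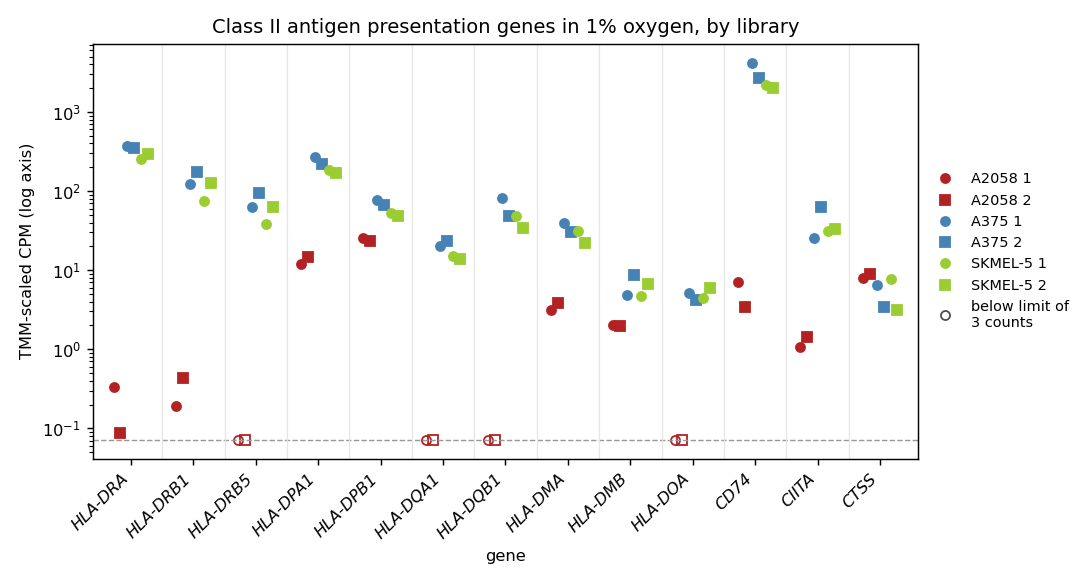
TMM-scaled CPM (log axis) of the 13 class II antigen presentation genes in each hypoxic library. Values under 0.0718 CPM (dashed line, the limit of 3 counts before TMM scaling) are drawn as open symbols on it. In 12 genes both A2058 libraries lie below the A375 and SKMEL-5 libraries, and in CTSS they lie above.

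In class I presentation, by which nearly every cell shows peptides to CD8+ T cells, 12 of 16 genes did not pass. Of the 16, 2 were higher and 2 lower, with a median of 0.01. The called share, 25%, was near the 21.1% of all tested genes. ERAP2, which trims peptides in the endoplasmic reticulum, stood at 68.4 and 82.3 CPM in A2058, 3.28 and 2.45 in A375 and 3.03 and 3.11 in SKMEL-5 (log2 difference 4.67 ± 0.31, adjusted p = 7.45e-06), and TAPBP, tapasin, was higher as well (log2 difference 2.11 ± 0.30, adjusted p = 0.000677). HLA-B stood at 51.6 and 142 CPM against 822 and 306 in A375 and 526 and 279 in SKMEL-5 (log2 difference -2.30 ± 0.60, adjusted p = 0.0188). Its call was lost without A2058 replicate 1 (-1.75, adjusted p = 0.138). Of 24 interferon-response genes 4 were lower and 1 higher (median -0.22; 9.95% and 11.2% of all tested genes), with 2 and 0 without the 3 libraries that stood apart. Among the lower genes was OAS1, a sensor of double-stranded RNA, at 0.926 and 0.345 CPM against 10.9 and 12.1 in A375 and 10.9 and 12.4 in SKMEL-5 (log2 difference -4.16 ± 0.59, adjusted p = 0.000654). Of 18 cytokines and chemokines 4 were lower and 2 higher (median -1.76), against 9.95% and 11.2% of all tested genes. With the hypoxic libraries alone 6 were lower and 1 higher. IL24, an IL-10 family cytokine, stood at 0.189 and 0 CPM in A2058, 349 and 142 in A375 and 245 and 62.3 in SKMEL-5 (log2 difference -10.83 ± 1.67, adjusted p = 0.00106). LIF, an IL-6 family cytokine, was lower too (log2 difference -3.46 ± 0.57, adjusted p = 0.00158; without the 3 libraries -2.82, adjusted p = 0.0648).

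Among transcription factors of the epithelial-mesenchymal transition and the neural crest, 5 of 19 were higher and 6 lower (11.2% and 9.95% of all tested genes). SNAI2, which melanocytes also need, stood at 21.1 and 93.0 CPM in A2058, 1.41 and 0.4998 in A375 and 0.620 and 0.431 in SKMEL-5 (log2 difference 6.33 ± 0.69, adjusted p = 0.00012). SOX4 was higher (log2 difference 3.02 ± 0.40, adjusted p = 0.000449). FOXC2, a driver of mesenchymal change, had 0 counts in A2058 and stood at 25.5 and 16.0 CPM in A375 and 16.7 and 14.9 in SKMEL-5, at least 212-fold lower in A2058 (adjusted p = 0.000106). TWIST2 also had 0 counts in A2058 and was at least 30.4-fold lower (adjusted p = 0.000408). Members of this list differed in both directions.

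Of 16 tested adhesion genes 4 were higher and 2 lower (11.2% and 9.95% of all tested genes), the lower share near that of all genes. NCAM1, the neural cell adhesion molecule, stood at 139 and 222 CPM in A2058, 41.8 and 22.9 in A375 and 15.8 and 23.2 in SKMEL-5 (log2 difference 2.85 ± 0.34, adjusted p = 0.000217). The cadherin gene CDH13 was lower (log2 difference -1.95 ± 0.27, adjusted p = 0.000563). Of 25 integrin and laminin genes 4 were higher and 1 lower, near or under the 11.2% and 9.95% of all tested genes. LAMA1, a laminin chain of early basement membranes, stood at 219 and 442 CPM in A2058 against 0.631 and 7.13 in A375 and 1.05 and 4.92 in SKMEL-5 (log2 difference 6.59 ± 0.86, adjusted p = 0.00038).

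Matrix genes differed in both directions. The 2 lists that follow compare with 11.2% higher and 9.95% lower among all tested genes. Of 29 collagens and matrix proteins 9 were higher and 4 lower (median 0.49). With the hypoxic libraries alone 8 were higher and 1 lower. THBS2, a thrombospondin that restrains blood vessel growth, stood at 3028 and 4054 CPM in A2058, 3.07 and 5.34 in A375 and 1.14 and 0.754 in SKMEL-5 (log2 difference 10.79 ± 0.69, adjusted p = 7.26e-06). COL5A2, a fibrillar collagen chain, went the other way, at 1.09 and 1.75 CPM against 213 and 258 in A375 and 284 and 371 in SKMEL-5 (log2 difference -7.61 ± 0.67, adjusted p = 3.81e-05). Of 21 proteases and inhibitors 10 were higher and 1 lower (median 1.98; 6 and 0 without the 3 libraries that stood apart). MMP1, the interstitial collagenase, stood at 1045 and 186 CPM in A2058, 0.271 and 3.50 in A375 and 0.191 and 3.59 in SKMEL-5 (log2 difference 8.33 ± 1.15, adjusted p = 0.000551). MMP14, a membrane-bound collagenase, stood at 818 and 1221 CPM against 124 and 149.6 in A375 and 128 and 154 in SKMEL-5 (log2 difference 2.88 ± 0.38, adjusted p = 0.000439). TIMP1, an inhibitor of these enzymes, was lower (log2 difference -1.48 ± 0.42, adjusted p = 0.0282). Without A2058 replicate 1, A2058 replicate 2 or SKMEL-5 hypoxia replicate 1, TIMP1 did not pass (-1.21, adjusted p = 0.185, -1.81, adjusted p = 0.0893 and -1.40, adjusted p = 0.0603).

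Of 8 fibroblast markers 7 were higher in A2058 and none lower (4 without the 3 libraries that stood apart), and their summed level was 88.2 to 139 CPM in A2058 and 6.13 to 10.9 CPM in the others. Marker counts compare with 11.2% higher and 9.95% lower among all tested genes. COL1A1, the main chain of type I collagen, stood at 37.4 and 58.6 CPM in A2058, 3.37 and 1.07 in A375 and 5.72 and 1.62 in SKMEL-5. COL1A2, the other chain of type I collagen, stood at 0.358 and 1.24 CPM in A2058, 0 and 0.0227 in A375 and 0 and 0 in SKMEL-5, with 1 count in all outside A2058, 128-fold higher (95% exact interval 22.0 to 5119, counting error only; adjusted p = 0.00279). Without the 3 libraries that stood apart it did not pass (fitted log2 difference 5.46, adjusted p = 0.0856). None of the 8 was at 0 counts in A2058. COL1A1, COL1A2, COL3A1, DCN and LUM are also members of the list of collagens and matrix proteins, so the 2 counts share genes. The part of the fibroblast markers in the matrix results was not tested. Of 4 tested endothelial markers 1 was higher, with a summed level of 3.05 to 5.75 CPM in A2058 and 2.68 to 11.9 CPM in the others. Of 7 keratinocyte markers KRT1 and DSG3 had 0 counts in the 6 libraries, 3 were tested and 2 were lower in A2058.

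The MAPK pathway is overactive in most melanomas. Of 20 genes of its output and feedback 7 were lower in A2058, 1 higher and 12 did not pass (median -1.08; 4 and 1 with the hypoxic libraries alone, 0 and 0 without the 3 that stood apart). The shares of all tested genes were 9.95% lower and 11.2% higher. EPHA2, a receptor kinase, stood at 58.7 and 34.3 CPM in A2058, 406 and 544 in A375 and 402 and 599.99 in SKMEL-5 (log2 difference -3.39 ± 0.65, adjusted p = 0.00398). That call was lost without A2058 replicate 2 (-3.05, adjusted p = 0.0633). SPRED3, a brake on RAS signalling, stood at 7.24 and 1.98 CPM against 29.6 and 36.5 in A375 and 56.2 and 41.0 in SKMEL-5 (log2 difference -3.11 ± 0.60, adjusted p = 0.00404; without the 3 libraries -2.39, adjusted p = 0.0657). Of 22 drivers and suppressors of melanoma 3 differed, a share under the 21.1% of all tested genes. CDKN2B, which encodes the cell cycle inhibitor p15, stood at 113 and 18.7 CPM in A2058 and had 0 counts in the 4 others. Its A2058 mean was at least 731-fold higher (adjusted p = 0.000232). CDKN1A, which encodes the inhibitor p21, was lower, at 28.5 and 14.1 CPM against 225 and 180.1 in A375 and 450.4 and 160.3 in SKMEL-5 (log2 difference -3.54 ± 0.61, adjusted p = 0.00198; without the 3 libraries -2.55, adjusted p = 0.0574), and TERT, the telomerase subunit, was higher (log2 difference 2.73 ± 0.33, adjusted p = 0.000217). Of 20 proliferation genes none passed (median 0.17).

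The series' title concerns sugar chains, and genes that build and bind them were counted in 6 lists. GCNT2, the enzyme that branches poly-LacNAc chains to the I antigen, stood at 49.8 and 84.8 CPM in A2058, 4.99 and 6.25 in A375 and 6.10 and 5.41 in SKMEL-5 (log2 difference 3.56 ± 0.34, adjusted p = 5.15e-05). B3GNT7, which extends such chains, went the other way, at 0.484 and 0.604 CPM against 60.1 and 28.4 in A375 and 108 and 36.3 in SKMEL-5 (log2 difference -6.70 ± 0.73, adjusted p = 0.000129). Over the 12 tested genes of this group 2 were higher and 1 lower, a called share of 25%, near the 21.1% of all tested genes.

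Of 17 sialyltransferases 8 were higher and 1 lower (median 0.70; 6 and 0 with the hypoxic libraries alone, 4 and 1 without the 3 that stood apart). The shares of all tested genes were 11.2% higher and 9.95% lower. ST8SIA1, which makes the melanoma ganglioside GD3, stood at 17.7 and 19.9 CPM in A2058, 0.631 and 1.52 in A375 and 0.882 and 0.988 in SKMEL-5 (log2 difference 4.22 ± 0.46, adjusted p = 0.000117). ST3GAL6 stood at 39.8 and 32.4 CPM against 4.75 and 5.16 in A375 and 3.98 and 4.76 in SKMEL-5 (log2 difference 2.95 ± 0.42, adjusted p = 0.000621). ST6GALNAC2 stood at 13.9 and 16.5 CPM against 0.331 and 0.409 in A375 and 2.65 and 0.862 in SKMEL-5 (log2 difference 4.23 ± 0.63, adjusted p = 0.000879). Both put sialic acid on galactose or on N-acetylgalactosamine of glycoproteins.

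Of 18 ganglioside and glycosphingolipid genes 7 were higher and 2 lower (median 1.12), against 11.2% and 9.95% of all tested genes. With the hypoxic libraries alone only 2 were higher and 1 lower. B3GALNT1, the globoside synthase, stood at 16.2 and 11.0 CPM in A2058 and had 0 counts in the others, at least 151-fold higher (adjusted p = 0.000112). A4GALT, which makes the substrate of that enzyme, was lower, at 0.884 and 0.776 CPM against 15.5 and 7.07 in A375 and 20.01 and 10.2 in SKMEL-5 (log2 difference -3.97 ± 0.96, adjusted p = 0.0132). A4GALT lost its call without either A2058 library (-4.07, adjusted p = 0.0845 and -3.89, adjusted p = 0.121). Of 21 genes of N-glycan branching and fucosylation 6 were higher and 1 lower (median 0.46), against the same shares of all tested genes. This count was 2 higher and 1 lower with the hypoxic libraries alone. FUT4, which makes the Lewis X antigen, stood at 11.3 and 9.97 CPM in A2058, 0 and 0.114 in A375 and 0.119 and 0.0180 in SKMEL-5 (log2 difference 7.33 ± 0.88, adjusted p = 0.000229), whereas the mannosidase gene MAN1A1 was lower (log2 difference -6.61 ± 0.94, adjusted p = 0.000889).

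Of 6 tested galectins, which bind these chains, and galectin ligands 2 were higher and none lower (median 0.27), against 11.2% and 9.95% of all tested genes. LGALS3BP, a secreted glycoprotein that galectins bind, stood at 970.4 and 2202 CPM in A2058, 510.1 and 715 in A375 and 542 and 691 in SKMEL-5 (log2 difference 1.37 ± 0.36, adjusted p = 0.0212). The call was lost without A2058 replicate 2 (0.66, adjusted p = 0.345), without A375 replicate 1 (1.26, adjusted p = 0.0518) or without SKMEL-5 replicate 1 (1.29, adjusted p = 0.0612). The galectin gene LGALS1 stood at 584 and 928 CPM in A2058, 1452 and 651 in A375 and 1134 and 762 in SKMEL-5 and did not pass (log2 difference -0.40 ± 0.41, adjusted p = 0.542), and neither did LGALS3 (log2 difference 0.64 ± 0.59, adjusted p = 0.498). Of 18 proteoglycan core proteins 5 were higher and 2 lower (11.2% and 9.95% of all tested genes), the lower share near that of all genes. With the hypoxic libraries alone 3 were higher and 2 lower. SDC2, a syndecan, stood at 166 and 209 CPM in A2058 (log2 difference 2.43 ± 0.35, adjusted p = 0.000639). In A375 SDC2 stood at 25.3 and 39.7 CPM, and in SKMEL-5 at 28.1 and 46.0. GPC6, a glypican, was lower (log2 difference -2.64 ± 0.56, adjusted p = 0.00676) and lost its call without A2058 replicate 1 (-2.04).

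HOX genes record position along the body axis. Of 9 tested HOXD genes 5 were higher in A2058 and none lower (median 1.83; 11.2% and 9.95% of all tested genes were called; 4 with the hypoxic libraries alone and 4 without the 3 that stood apart). HOXD4 stood at 16.0 and 16.7 CPM in A2058, 0.541 and 0.386 in A375 and 0.906 and 0.593 in SKMEL-5 (log2 difference 4.79 ± 0.41, adjusted p = 3.37e-05). Its neighbour HOXD3 stood at 12.1 and 8.68 CPM against 0.812 and 0.523 in A375 and 1.57 and 0.916 in SKMEL-5 (log2 difference 3.51 ± 0.42, adjusted p = 0.000216). The annotated spans of HOXD3 and HOXD4 overlap, so reads of the 2 may have been shared. In the other clusters 2 of 11 HOXA genes were higher, 1 of 9 HOXB genes higher and 1 lower, and 1 of 9 HOXC genes lower. Their called shares (18.2%, 22.2% and 11.1%) were near or under the 21.1% of all tested genes. Of 15 tested cancer-testis antigens, genes normally limited to germ cells, 4 were higher and 2 lower (11.2% and 9.95% of all tested genes). MAGEA1 stood at 35.2 and 16.3 CPM in A2058, 0.331 and 1.91 in A375 and 0.0477 and 0.539 in SKMEL-5 (log2 difference 5.45 ± 0.77, adjusted p = 0.0006). MAGEC2 was lower, at 20.2 and 26.0 CPM against 118 and 139 in A375 and 84.3 and 103 in SKMEL-5 (log2 difference -2.25 ± 0.36, adjusted p = 0.00137).

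Genes that low oxygen itself induces differed in part. CA9, the carbonic anhydrase that is a standard mark of hypoxia, stood at 363 and 725 CPM in A2058, 593 and 689 in A375 and 352 and 667 in SKMEL-5 and did not separate the lines (log2 difference -0.07 ± 1.37, adjusted p = 0.98). This SE is not the spread of the hypoxic libraries alone, because the fit shares 1 spread per gene over all 12 libraries. The normoxic A2058 libraries stood at 18.98 and 0.0826 CPM. VEGFA, the angiogenic factor, was higher in A2058, at 318 and 828 CPM against 200.0 and 185 in A375 and 149 and 196 in SKMEL-5 (log2 difference 1.65 ± 0.37, adjusted p = 0.00861). VEGFA lost its call without A2058 replicate 2 (0.80) and without the 3 libraries that stood apart (0.77). Nor did it pass with the hypoxic libraries alone (1.64, adjusted p = 0.0507) or when tested for more than a 2-fold difference (adjusted p = 0.101). EGLN3, an oxygen sensor that marks hypoxia-inducible factors for decay, stood at 17.6 and 17.6 CPM against 0.180 and 0.159 in A375 and 0.167 and 0.826 in SKMEL-5 (log2 difference 5.90 ± 0.58, adjusted p = 6.86e-05). SLC16A3, the transporter that exports lactate, was higher as well (log2 difference 2.98 ± 0.43, adjusted p = 0.000727).

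Of 29 hypoxia-response genes 9 were higher and none lower (median 0.74), 6 with the hypoxic libraries alone and 1 without the 3 that stood apart. The shares of all tested genes were 11.2% higher and 9.95% lower. Of 21 glycolysis genes 2 were higher, a share under that 11.2% (median 0.31). Of 13 mRNAs of the mitochondrial genome none passed (median 0.05). Mitochondrial genes took 1.22 and 1.74% of the counts in A2058, 3.32 and 0.648% in A375 and 3.13 and 1.35% in SKMEL-5. Of 12 clock output genes none passed (median -0.35). Their summed level was 218 to 586 CPM in A2058 and 238 to 1999.5 CPM in the others, and the part of this spread in the results above was not tested.

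The 12 protein-coding genes with the largest differences upward and the 12 with the largest downward had few or no counts on the lower side. Upward they were TYR, MBP, CDKN2B, MLANA and KIT, with DPYSL4, IGLON5, PYCARD, GYG2, TDRD9, SERPINB9 and PASD1. DPYSL4, a relative of the proteins that guide growing axons, stood at 35.7 and 146 CPM in A2058 and had 0 counts in the 4 others. Its A2058 mean was at least 1008-fold higher (adjusted p = 0.000128). PYCARD, the adaptor of the inflammasome, stood at 17.4 and 47.8 CPM against 0 counts, at least 362-fold higher (adjusted p = 0.000142). SERPINB9, the inhibitor of granzyme B, stood at 52.2 and 60.8 CPM against 1 count in all, 9771-fold higher (95% exact interval 1753 to 386020.0). The remaining 4 are a neuronal adhesion gene (IGLON5), a starter of glycogen chains (GYG2), a germ cell helicase (TDRD9) and a cancer-testis gene (PASD1), at 26.6 and 51.2, 27.1 and 26.5, 23.7 and 28.5 and 65.2 and 76.7 CPM in A2058.

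Downward they were BCAT1, MEOX2, SOX11, TFAP2B, GDA, LOXL4, DTX1, TAGLN3, ARPP21, STAC, PAX9 and EDA2R. BCAT1, which breaks down branched-chain amino acids in the cytosol, had 0 counts in A2058 and stood at 84.8 and 292 CPM in A375 and 107 and 305 in SKMEL-5, at least 2286-fold lower in A2058 (adjusted p = 8.65e-05). The homeobox gene MEOX2 also had 0 counts in A2058 against 56.1 and 179.8 CPM in A375 and 60.4 and 202 CPM in SKMEL-5, at least 1446-fold lower (adjusted p = 6.91e-05). SOX11, a factor of developing nerve cells, had 0 counts against 56.9 and 74.2 CPM in A375 and 30.8 and 70.0 CPM in SKMEL-5, at least 672-fold lower (adjusted p = 1.31e-05). LOXL4, a lysyl oxidase that links collagen, stood at 0.126 and 0.0287 CPM in A2058, 423 and 1176 in A375 and 644 and 1223 in SKMEL-5 (log2 difference -13.30 ± 1.27, adjusted p = 5.62e-05). Besides TFAP2B, the others (GDA, DTX1, TAGLN3, ARPP21, STAC, PAX9 and EDA2R) had 0 counts in both A2058 libraries. In the fits that left out 1 library or the 3 that stood apart, the genes named among these highest and lowest kept their calls, except IGLON5 without the 3 (13.27, adjusted p = 0.0601).

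**Figure D4:**
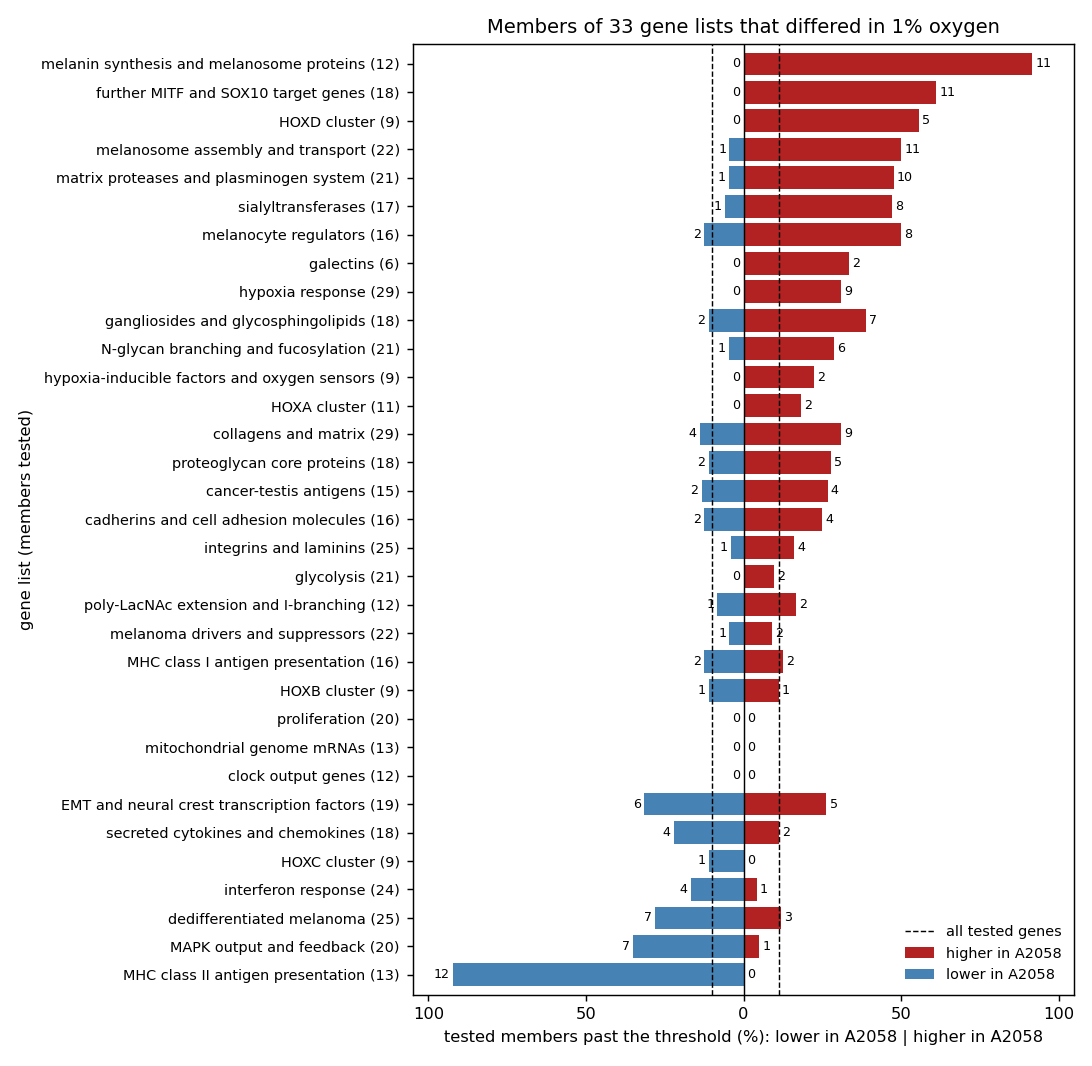
Share of the tested members of 33 gene lists (number tested in brackets) that were higher (right) or lower (left) in hypoxic A2058 at an adjusted p under 0.05, with the number of genes beside each bar. Dashed lines mark the share of all tested genes, 11.2% higher and 9.95% lower. Melanin and melanosome genes stand at 11 of 12 higher and class II genes at 12 of 13 lower.

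The differences between the lines were largely present in normoxia too. Of the 2198 genes higher in hypoxic A2058, 2172 had the same sign in the normoxic libraries, and in 1903 the normoxic libraries of the 2 sides did not overlap; of the 1954 lower genes the numbers were 1935 and 1817. Among all tested genes the normoxic A2058 libraries lay above the others for 22.4% and below for 24.0%. No tested gene passed the threshold for a difference between the hypoxic and the normoxic contrast in edgeR (652 genes, 3.32%, at an unadjusted p under 0.05), while DESeq2 called 9 larger and 7 smaller differences in hypoxia. A p that misses the threshold does not show that the contrasts were equal. For genes with 0 counts on one side in both conditions, such as TYR and MLANA, this edgeR test could not decide. A log2 difference from 0 has no finite size, and the SE of the change was 6150.5 for TYR and 2401.3 for MLANA. The melanin list had a median difference of 8.39 in hypoxia and 8.42 in normoxia, and the class II list -7.54 and -8.00. MITF did not separate the sides in normoxia, at 160.7 and 160.8 CPM in A2058, 21.9 and 17.2 in A375 and 170 and 116 in SKMEL-5.

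Of the 8 genes with the smallest p for such a difference, CDH13, a cadherin without a cytoplasmic part, stood first. Its log2 difference between A2058 and the others was -1.95 in hypoxia and -4.37 in normoxia (change of the difference 2.42 ± 0.36, unadjusted p = 2.98e-05). ARL10, a small GTPase, had log2 differences of 8.64 in hypoxia and 5.38 in normoxia (change of the difference 3.26 ± 0.61, unadjusted p = 0.000219). NDUFA4L2, a hypoxia-induced relative of a cytochrome oxidase subunit, stood at 57.2 and 299 CPM in hypoxic A2058 and 1.74 and 0.358 CPM in normoxic A2058, with log2 differences from the other lines of 5.39 and -0.72 (change of the difference 6.11 ± 1.15, unadjusted p = 0.000247). CACNA1B, a calcium channel subunit, did not exceed 0.110 CPM in any normoxic library, and in hypoxia stood at 0.0631 and 0.632 CPM in A2058, 33.5 and 9.63 in A375 and 21.4 and 23.5 in SKMEL-5 (change of the difference -6.87 ± 1.56, unadjusted p = 0.00102). RGS5, a regulator of G-protein signalling, stood at 245 and 125 CPM in hypoxic and 25.7 and 15.9 CPM in normoxic A2058 (change of the difference 3.67 ± 0.78, unadjusted p = 0.000632). EGLN3 (change of the difference 3.61 ± 0.83, unadjusted p = 0.00113), SH3D21 (change of the difference -5.03 ± 0.99, unadjusted p = 0.000359) and IGSF9 (change of the difference 5.14 ± 1.11, unadjusted p = 0.000712) complete the 8. Fitted on the hypoxic libraries alone, IGSF9 did not pass in hypoxia (log2 difference 2.08, adjusted p = 0.125). Without A2058 hypoxia replicate 2 its hypoxic log2 difference was 0.05.

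**Figure D5:**
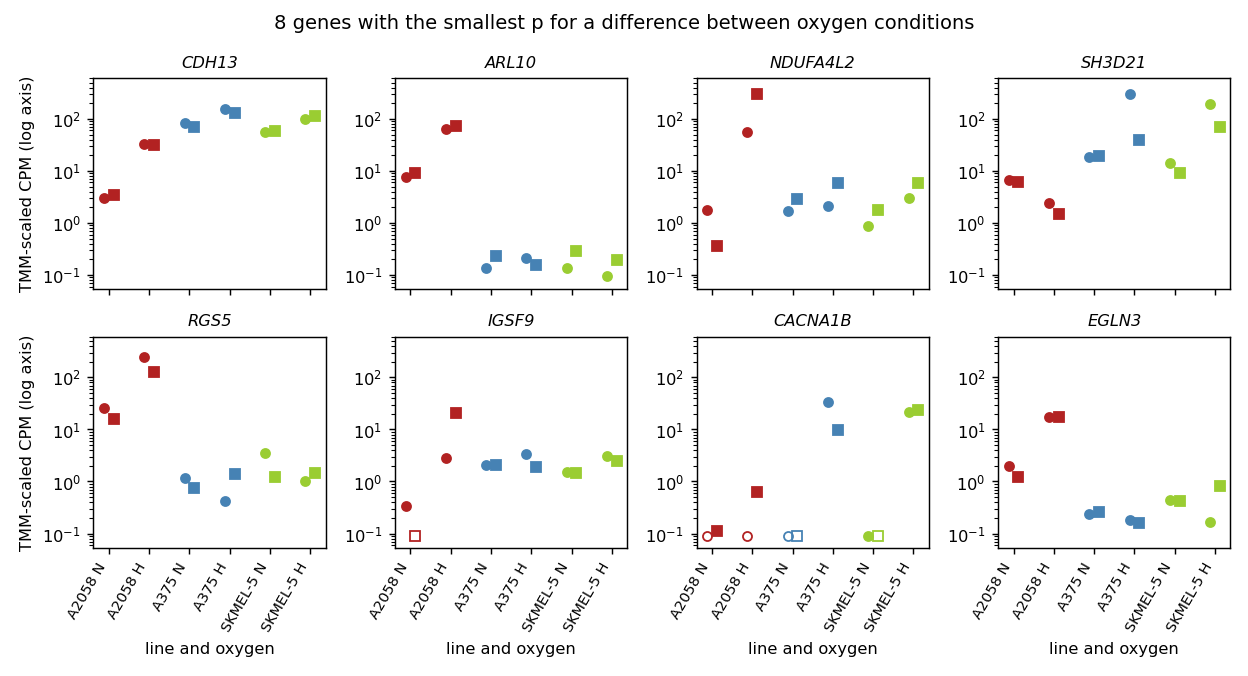
TMM-scaled CPM (log axis) of the 8 genes in each library of the 3 lines in normoxia (N) and in 1% oxygen (H), circles for replicate 1 and squares for replicate 2. Open symbols mark values under the highest limit of 3 counts in the 12 libraries (0.0887 CPM before TMM scaling). CACNA1B is high in hypoxic A375 and SKMEL-5 and under 1 CPM in hypoxic A2058.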

How the data were processed

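RNA of 3 melanoma lines in normoxia and in 1% oxygen (12 libraries, 6 groups of 2) was made into libraries with a NuGen Universal Plus mRNA kit, per the labels' protocols. The build GRCh38 and the tools STAR 2.5.0a, Trim Galore 0.6.1 and bcl2fastq 2.20 are named in the submitters' processing notes. Which program counted the reads, with which strand setting and annotation, is not given in the sources used here. The authors deposited 1 table of raw read counts, with 60656 rows named by Ensembl ID, of which 23267 were 0 in all libraries. Symbols came from a table of gene names (60445 IDs matched), and types and positions from GENCODE 29 on GRCh38 (58438 IDs placed).

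The filter filterByExpr (groups as given, count minimum 10, total minimum 15) kept 19636 genes, which were scaled by TMM and fitted over the 12 libraries together with edgeR 4.0.16 in R 4.3.3 (quasi-likelihood, 1 mean per group, 6 residual degrees of freedom, common biological coefficient of variation 0.453). The contrast was hypoxic A2058 minus the mean of hypoxic A375 and SKMEL-5. The same contrast in normoxia, the change between both, and A375 minus SKMEL-5 were also tested. A call is a p under 0.05 after Benjamini-Hochberg adjustment over all tested genes. The SE is the absolute log2 difference divided by the square root of F. Against a side with 0 counts, a fold is a lower bound, from the mean of the higher side and from 3 counts in a library, scaled by TMM. The bound leaves out the spread between the libraries of the higher side. Against 1 to 3 counts in all, a fold has a 95% exact interval for counting error only.

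The members and the 33 gene lists and 6 marker lists were chosen with earlier results of these data known. Of 602 list members 600 matched an ID. Some genes are in more than 1 list, so the counts of such lists are not independent. SNAI2, TFAP2A and ZEB2, for example, count as melanocyte regulators and as neural crest factors. FOSL1 is in the dedifferentiated and MAPK lists, and ST8SIA1 in the sialyltransferase and ganglioside lists. Named were 14 genes whatever their values (TYR, PMEL, MLANA, AXL, MITF, SOX10, SOX9, NGFR, EGFR, CA9, VEGFA, GCNT2, LGALS1 and LGALS3), the 12 highest and 12 lowest called protein-coding genes with at least 10 CPM on the higher side and no overlap, members of the pigment and dedifferentiated lists (1 of these is not reported here), up to 4 called members per direction of other lists (at least 2 CPM), and the 8 genes with the smallest p for a change between oxygen conditions. CIITA, CD74, CTSS and the single fibroblast and keratinocyte markers were named after their values were seen. Promoters are RefSeq's, GRCh38.p14. Alternatives were DESeq2 1.42.0 and its size factors, other filters, a 2-fold minimum, a replicate block, each comparison line alone, the hypoxic libraries alone, and libraries left out.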

Additional observations from a re-analysis of the deposited data

How the results depend on the processing

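The counts of higher and lower genes in hypoxic A2058 (2198 and 1954) moved by more than 1.5 times under several alternatives, and no gene named in the report that was called changed sign under any of them. A 2-fold minimum gave 1219 higher and 1253 lower genes, A375 alone 1451 higher, SKMEL-5 alone 1325 higher, the 6 hypoxic libraries alone 1353 and 1211, and leaving out the 3 libraries that stood apart 1079 and 820, of which 1795 in all were among the 4152. Leaving out 1 library at a time gave 1134 (without A2058 hypoxia replicate 2) to 2565 (without A375 hypoxia replicate 2) higher genes. The lower genes ran from 757 to 2322 with the same libraries left out, with 1171 without A2058 hypoxia replicate 1. Of 112 called genes named in the report, 98 kept their call whichever library was left out, 12 lost it without A2058 hypoxia replicate 2 and 23 without the 3 libraries; the cause was not tested.

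The replicate block gave 2621 higher and 2193 lower genes; the labels do not pair the numbers, and the deviations of same-numbered libraries correlated across genes at -0.469 and -0.409 between hypoxic A2058 and the other lines, 0.797 between hypoxic A375 and SKMEL-5, and 0.263, 0.466 and 0.579 between lines in normoxia. Of the genes the report names, ATP7A passed with the block (1.76, adjusted p = 0.0215). Crossing the numbers of A2058 in the replicate block, chosen after seeing the data, gave 4055 higher and 3727 lower genes, 2 differences larger in hypoxia and 1 gene between A375 and SKMEL-5. Named genes that passed only with some alternatives passed here: NGFR (-2.90, adjusted p = 0.00499), PAX3 (0.87, adjusted p = 0.00798), LGALS3 (0.85, adjusted p = 0.0217), BCL2A1 (1.27, adjusted p = 0.0259) and ATP7A (1.84, adjusted p = 0.0104). Summing same-numbered A375 and SKMEL-5 libraries, also chosen after seeing the data, gave 1453 higher genes. For the change between oxygen conditions (0 genes), DESeq2 gave 9 larger and 7 smaller differences and no filter 27 and 71. For A375 against SKMEL-5 (0 genes), DESeq2 gave 11 and no filter 38.

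Among genes that did not pass, CA9 turned to 0.094 against SKMEL-5 alone and ran from -0.65 (without A2058 hypoxia replicate 2) to 0.34 (without A2058 hypoxia replicate 1), and SOX9 ran from -0.73 (without A2058 hypoxia replicate 1) to 1.23 (without A2058 hypoxia replicate 2). Depth did not allow levels under 0.0553 to 0.0718 CPM (before TMM scaling) to be told from 0.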
